A study of Mus musculus with 9 samples.

Results

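The genes described here are 10 chaperone genes of the mouse dorsal root ganglion (DRG), measured after transection of the sciatic nerve. They are the small heat shock protein genes Hspb1, Hspb2, Hspb6, Hspb8 and Cryab, the cytosolic HSP70 genes Hspa1a, Hspa1b and Hspa8, the mitochondrial chaperonin gene Hspd1 and the transcription factor gene Hsf1. Members were found by the gene name or RefSeq accession that the array files give for each probe. Of the 10 genes, 9 had a probe of their own, with 19 probes of the 41174 on the array, and 18 of the 19 passed the filter on dim probes, as did 31186 probes in all. Hspa1b had none of its own, and 2 of the 4 Hspa1a probes also list the Hspa1b accession.

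The samples were total RNA of L3/L4 DRG from adult mice, 4 from uninjured DRG (C1 to C4) and 5 from DRG after sciatic nerve transection (T1 to T5), all of them cre.neg and jun.wt by their labels. The labels and the methods of the study give 3 days after transection, and its results text gives a shorter time. Animals are not identified, it is not stated whether uninjured DRG came from injured mice, and nothing says that the samples of a group are separate mice, so the p-values measure only the spread between these samples. On each two-colour Agilent array the DRG sample carried Cy5 and a universal mouse reference RNA carried Cy3, with no dye swap. Levels are given as the log2 of Cy5 divided by Cy3, and a difference of 1 between groups is then a doubling.

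The median Cy5 signal lay between 200 and 231 on uninjured arrays and between 156 and 238 on injured arrays, and between 71.0% and 78.9% of spots were above background. T5 had the lowest value of both (156 and 71.0%). The arrays lay on 3 slides, with C2, C3 and C4 on slide 1, C1 with T1, T2 and T5 on slide 2, and T3 and T4 on slide 3, so slide and injury overlap in large part. All 5 axon injury genes of the check list rose, among them Atf3, a stress-induced transcription factor, by 5.14 on the log2 scale. Genes of sensory neurons such as Calca and Scn10a were well above background on all 9 arrays. A list of 12 skeletal muscle genes lay 1.62 above the uninjured mean on T2 and 3.05 above it on T4, against −0.13 to 0.30 on the other arrays, and results are also given without T2 and T4 where these arrays touch them.

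Small heat shock proteins form large oligomers that hold unfolding proteins in a soluble state without using ATP. HSP70 proteins bind and release such clients in cycles of ATP hydrolysis, driven by HSP40 partners and by nucleotide exchange factors of the BAG family. HSF1 is the transcription factor that binds heat shock elements, repeats of nGAAn in alternating orientation, in the promoters of many of these genes. In sensory neurons HSPB1 (HSP27) is known for its association with axons and the cytoskeleton, and inherited mutations of HSPB1 and HSPB8 cause motor and sensory neuropathies.

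The promoters of the called members show how unlike their upstream sequence is. RefSeq (GRCm38.p6) gave windows of 250 bases before the start for 6 of the 10 genes. Hspb2, Cryab, Hspa8 and Hsf1 were not matched. Each window was searched for a head-to-head or tail-to-tail pair of heat shock units, GAANNTTC or TTCNNGAA, which read the same on both strands. Matches of the pair are shown in capitals, 5′ to 3′ along the gene, for the genes with a called probe of their own.
Hspb1, chr5:135887669-135887918, plus strand: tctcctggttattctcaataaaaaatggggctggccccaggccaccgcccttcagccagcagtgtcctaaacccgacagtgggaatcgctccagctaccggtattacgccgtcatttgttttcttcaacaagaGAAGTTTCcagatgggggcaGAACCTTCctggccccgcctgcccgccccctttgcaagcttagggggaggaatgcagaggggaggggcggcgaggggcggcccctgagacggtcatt
Hspb8, chr5:116422865-116423114, minus strand: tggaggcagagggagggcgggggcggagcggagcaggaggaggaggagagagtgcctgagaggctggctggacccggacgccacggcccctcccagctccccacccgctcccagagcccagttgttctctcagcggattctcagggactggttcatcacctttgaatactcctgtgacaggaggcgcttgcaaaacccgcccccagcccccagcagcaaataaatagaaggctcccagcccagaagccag
Hspa1a, chr17:34972157-34972406, minus strand: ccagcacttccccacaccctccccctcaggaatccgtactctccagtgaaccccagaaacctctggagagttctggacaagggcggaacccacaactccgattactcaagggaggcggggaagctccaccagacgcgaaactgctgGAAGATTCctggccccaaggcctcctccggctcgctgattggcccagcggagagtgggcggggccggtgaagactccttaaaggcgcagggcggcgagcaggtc
The Hspb1 window held 2 pairs, GAAGTTTC at 117 and GAACCTTC at 97 bases before the start. The Hspa1a window held 1 pair, GAAGATTC at 104 bases, and the Hspa1b window held the same pair at the same place in a sequence identical at 247 of 250 bases. The Hspb8 window held none. Hspd1 and Hspb6 each had windows at 2 starts, and at 1 start of Hspd1 the pairs overlapped in the run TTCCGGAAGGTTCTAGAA, which holds the triple of units. A pair was present in 12.8% of all 32851 windows and a triple (GAANNTTCNNGAA or TTCNNGAANNTTC) in 0.466%. At 1 of its starts Hspb6, which was not called, also held a pair, GAAGTTTC at 120 bases. Pairs lay in 5 of the 8 windows of the members and in 5 of the 6 genes, called or not. A match describes the letters in the window and shows neither binding nor a response.

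Probes of Hspb1, Hspb8 and Hspa1a were called higher after injury, and no member probe was called lower. Over the 18 probes, 5 were called higher and 0 lower by limma's moderated test with Benjamini-Hochberg adjustment over all probes (adjusted p under 0.05). This is 27.8% of the member probes, against 23.5% of all probes called in either direction, 10.5% called higher and 13.0% called lower. The 5 probes belong to 3 genes, and among them are Hspa1a probes that overlap by 30 bases. At an unadjusted p under 0.05, the same test counted 5 higher and 1 lower. The groups of arrays did not overlap for 4 of the 18 probes, against 22.5% of all probes. The median log2 fold change of the 18 probes was 0.09, against −0.0046 for all probes. Without T2 and T4 the count of member probes called higher was 3 and the count over all probes was 4032, against 7336 with all arrays.

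**Figure D1:**
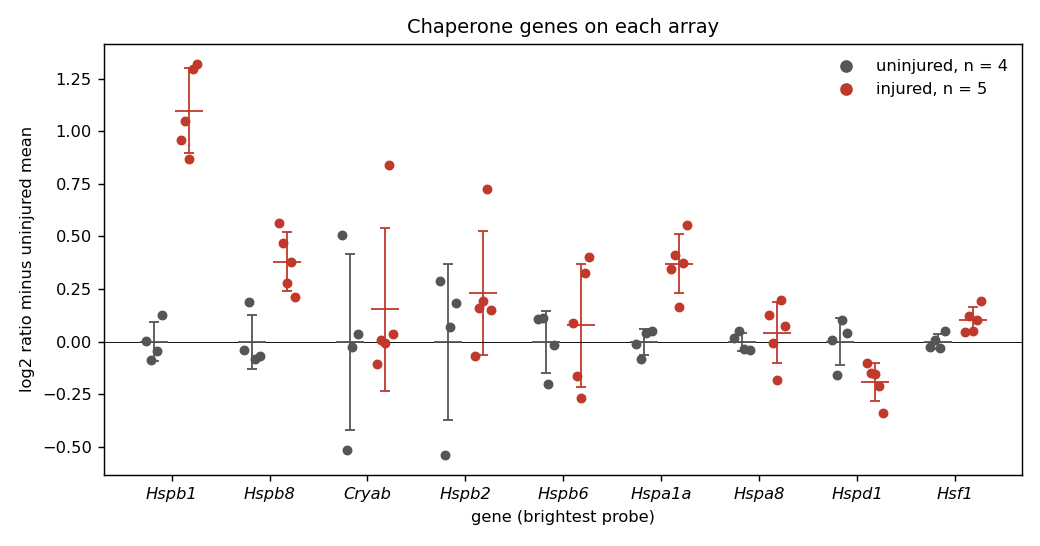
Log2 ratio of the brightest probe of each gene on each array (vertical axis, minus the mean of the uninjured arrays), with uninjured arrays in gray and injured arrays in red; horizontal bars are group means and error bars SD. The injured arrays of Hspb1, Hspb8 and Hspa1a lie above every uninjured array, whereas the groups overlap for the other 6 genes.

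Hspb1 showed the largest difference among the members. Its probe read 2.68, 2.59, 2.63 and 2.80 on C1 to C4, and 3.63, 3.72, 3.54, 3.97 and 3.997 on T1 to T5. The groups did not overlap, T5 and T4 were the highest, and T3 was the lowest of the injured arrays. The mean was 2.68 ± 0.093 (SD, n = 4) without injury and 3.77 ± 0.202 (SD, n = 5) after it, a 2.14-fold increase. The log2 fold change was 1.10 with an SE of 0.10 (limma, adjusted p = 3.49e-05), and the two-sided exact permutation test gave p = 0.00794, the smallest that these arrays allow.

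The Hspb1 difference was as large on the slide that holds both groups. On slide 2, C1 read 2.68 and the 3 injured arrays averaged 3.78 ± 0.190 (SD), a difference of 1.11, with all 3 injured arrays above C1. Leaving out T2 and T4, where muscle genes were high, gave 1.05 (adjusted p = 0.000783). The probe maps to chr5:134860337-134860524 on the plus strand (mm7, the build of the array files), a span of 188 bases. A second probe named Hspb1, which the files place on chromosome 13, was well above background on 0 of 9 arrays and was not tested.

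Hspb8, whose protein works with the co-chaperone BAG3 to send misfolded proteins to autophagy, rose by less. Its probe (chr5:115638546-115638605, minus strand, mm7) read 3.24, 3.47, 3.20 and 3.22 on C1 to C4, and 3.85, 3.75, 3.56, 3.66 and 3.50 on T1 to T5. The groups did not overlap, though T5 lay only just above C2, which stood apart from the other uninjured arrays. This was a log2 fold change of 0.38 with an SE of 0.088, a 1.30-fold increase (limma, adjusted p = 0.00988; exact permutation p = 0.00794). The difference no longer passed the threshold with median centring in place of loess (0.29, adjusted p = 0.330), in the Cy5 channel alone (0.26, adjusted p = 0.205), with the slide fitted as a fixed block (0.46, adjusted p = 0.164), without T2 and T4 (0.35, adjusted p = 0.0680) or without T1 and T2 (0.29, adjusted p = 0.05001).

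Hspb1 rose more than Hspb8. The difference between their changes was 0.72 on the log2 scale, and the two-sided exact permutation test gave p = 0.0159 (adjusted p = 0.0397 over the 5 pairs of members that were compared). Hspb1 also rose more than Cryab, by 0.94 (exact permutation p = 0.0159, adjusted p = 0.0397). All 5 pairs were chosen with earlier results of these data known, so their p-values describe these arrays and are not an independent test. Both differences missed the threshold when T1, T2, T3 or T5 was left out, with an adjusted exact p of 0.0714 each time. The exact p was then the smallest that the remaining arrays allow. The adjusted value was set by the number of arrays and by the other pairs, and does not measure how stable these differences are. Without single arrays they lay between 0.62 and 0.80 for Hspb8 and between 0.78 and 1.09 for Cryab.

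Cryab, the gene of αB-crystallin, and Hspb2, which encodes a small heat shock protein of muscle, are neighbours on chromosome 9. Neither changed detectably with injury, and both varied widely between arrays of the same group. The brighter Cryab probe (chr9:50734917-50734976, plus strand, mm7) read 2.44, 1.42, 1.90 and 1.97 on C1 to C4, and 1.82, 1.94, 1.92, 2.77 and 1.97 on T1 to T5. The extremes were C2 at the low end and C1 and T4 at the high end, whereas T1, T2, T3 and T5 lay between 1.82 and 1.97. The groups differed by 0.15 with an SE of 0.22 (limma, adjusted p = 0.677). The second probe (chr9:50731758-50731817) read 2.50, 2.03, 2.05 and 1.98 on C1 to C4, and 2.24, 2.19, 2.11, 2.80 and 2.18 on T1 to T5, a log2 fold change of 0.16 with an SE of 0.15 (adjusted p = 0.489). C1 and T4 were again the highest arrays of their groups, but C2 was not apart on this probe. Within slide 2 the sign turned, with differences of −0.53 and −0.30 that rest on the high value of C1.

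On their brighter probes Hspb2 followed Cryab from array to array. Its brighter probe (chr9:50729688-50729747, minus strand, mm7) read 1.46, 0.63, 1.24 and 1.35 on C1 to C4, and 1.10, 1.33, 1.37, 1.89 and 1.32 on T1 to T5. C2 was the lowest array and T4 the highest, as for the brighter Cryab probe. The groups differed by 0.23 with an SE of 0.18 (limma, adjusted p = 0.412). The change in Hspb2 differed from that in Cryab by 0.08, with a mean difference of their log2 ratios of −0.76 ± 0.161 (SD, n = 4) without injury and −0.68 ± 0.124 (SD, n = 5) after it (exact permutation p = 0.421, adjusted p = 0.526). The dimmer Hspb2 probe lay between 0.02 and 0.35 on uninjured and between 0.08 and 0.40 on injured arrays, a log2 fold change of 0.05 with an SE of 0.088 (adjusted p = 0.756). On this probe C4 was the lowest array (0.02), and C2 was not apart (0.12).

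Among 16476 genes, Hspb2 had the pattern closest to Cryab over the 9 arrays. Each gene was taken as its log2 ratio minus its uninjured mean, and likeness as the root mean square difference from Cryab. This was 0.137 for Hspb2, 0.150 for Aif1l, 0.166 for Cldn19, a tight junction gene of myelinating Schwann cells, and 0.171 for Fam178b, against a median of 0.412 over all genes. Taken from Hspb2, Cryab had rank 7. These values describe the brightest probes on 9 arrays on shared slides and carry no test.

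Markers of other cell types also moved between these arrays. A list of 6 myelinating Schwann cell genes, among them Mbp and Pmp22, lay 0.38 above the uninjured mean on C1, below it on C2 (−0.47) and 0.66 above it on T4. These were the extreme arrays of the brighter Cryab probe, whereas C2 was not apart on the second. The myelin list lay at 0.32 on T2 and −0.14 on T5, where Cryab was near its uninjured mean. The list spanned −0.47 to 0.38 in uninjured and −0.14 to 0.66 in injured DRG, and 0 of its 6 genes were called by limma (2 at an unadjusted p under 0.05). The skeletal muscle list spanned −0.04 to 0.08 in uninjured and −0.13 to 3.05 in injured DRG, with 0 of 12 genes called (1 at an unadjusted p under 0.05), and was high on T2 as well as T4. Without T2 and T4, Cryab gave −0.026 and 0.036 on its 2 probes and Hspb2 0.09 and −0.042. The part of these cells in the Cryab and Hspb2 values was not tested. In RNA of whole DRG, a change in the number of cells of a type and a change in RNA per cell cannot be told apart.

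**Figure D2:**
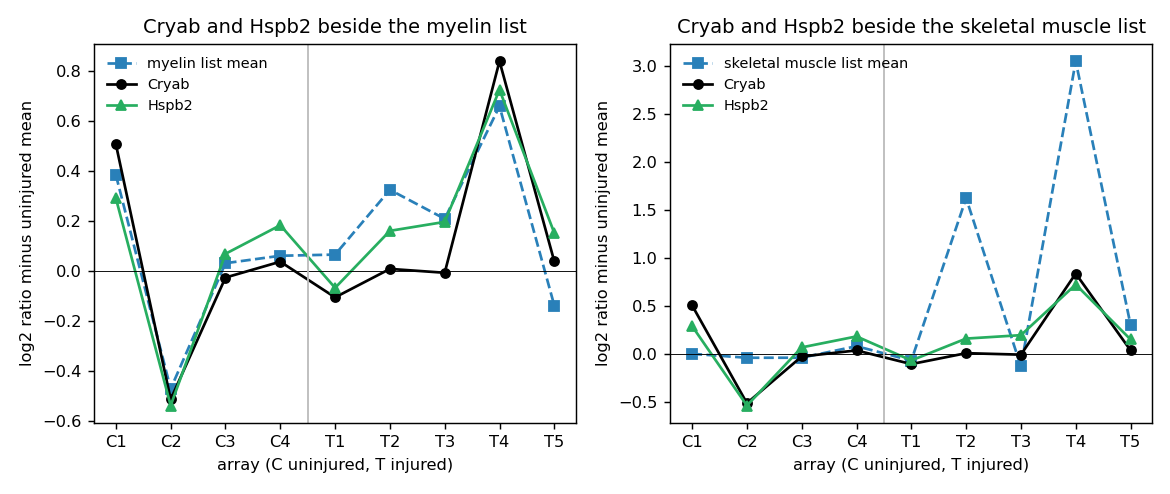
Brightest probes of Cryab (circles) and Hspb2 (triangles) on each array, beside the mean of the myelin list (left, squares) and of the skeletal muscle list (right, squares), all as log2 ratio minus the uninjured mean. Cryab and Hspb2 are low on C2 and high on C1 and T4; the myelin list is at −0.14 on T5 and the muscle list at 1.62 on T2, where both genes are close to their uninjured means.

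Hspb6 (HSP20), a small heat shock protein of muscle, differed little between groups. Its probe (chr7:27495589-27495732, plus strand, mm7) read −0.86, −0.86, −1.17 and −0.98 on C1 to C4, and −0.88, −1.13, −1.24, −0.64 and −0.56 on T1 to T5. T4 and T5 were the highest and T3 the lowest of all arrays, so the injured arrays enclosed the uninjured ones. The log2 fold change was 0.08 with an SE of 0.14 (limma, adjusted p = 0.746). Set against Cryab, the change in Hspb6 was −0.08 (exact permutation p = 0.778, adjusted p = 0.778). The smooth muscle list, whose genes include Myh11 and Tagln, lay at 0.74 on T4 and 1.12 on T5, the arrays on which Hspb6 was highest. It lay at −0.04 to 0.07 on the other injured arrays and −0.43 to 0.36 in uninjured DRG, with 0 of 8 genes called (0 at an unadjusted p under 0.05). The uninjured arrays ran the other way. There the list was highest on C3 (0.36), where Hspb6 was lowest, and lowest on C2 (−0.43), where Hspb6 was highest. The part of this list in the Hspb6 values was not tested. The genes closest to Hspb6 over the 9 arrays were Psmc4 (0.0685), Bscl2 (0.0730), Tecr (0.0737) and Mrpl4 (0.0849), against a median root mean square difference of 0.284.

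Hspa1a, which encodes the stress-inducible HSP70, rose on 3 of its 4 probes. The brightest (chr17:33066911-33066970, minus strand, mm7) read 2.41, 2.34, 2.46 and 2.47 on C1 to C4, and 2.77, 2.83, 2.58, 2.79 and 2.97 on T1 to T5. Every injured array was above every uninjured one, with T5 highest and T3 lowest among the injured. The log2 fold change was 0.37 with an SE of 0.078, a 1.29-fold increase (limma, adjusted p = 0.00611; exact permutation p = 0.0159). The next probe (chr17:33066941-33067000) shares 30 bases with it and is therefore not an independent measurement. It read 2.19, 2.23, 2.34 and 2.34 on C1 to C4, and 2.58, 2.66, 2.47, 2.71 and 2.81 on T1 to T5, a log2 fold change of 0.37 with an SE of 0.076 (adjusted p = 0.00563). The order of the injured arrays at both ends was the same, T5 highest and T3 lowest.

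The 2 probes that also list Hspa1b gave smaller differences, and the mRNAs of these near-identical genes cannot be told apart there. The probe at chr17:33067263-33067322 read 1.06, 1.09, 1.07 and 0.97 on C1 to C4, and 1.42, 1.27, 1.07, 1.30 and 1.50 on T1 to T5. T3 lay within the uninjured range. The log2 fold change was 0.26 with an SE of 0.084 (limma, adjusted p = 0.0433), and this call was lost in 16 of 23 alternatives. The probe at chr17:33068671-33068730, which lies 1348 bases from the nearest of the others, ranged from −0.28 to 0.02 on uninjured and from −0.16 to 0.14 on injured arrays. Its log2 fold change was 0.06 with an SE of 0.084 (adjusted p = 0.643). The difference between the Hspa1a probes was not tested.

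On slide 2 both probes specific to Hspa1a were higher on all 3 injured arrays than on C1, by 0.45 and 0.49. With slide as a fixed block these differences had adjusted p-values of 0.0983 and 0.0876. With median centring in place of loess they were 0.29 and 0.29, with adjusted p-values of 0.0881 and 0.0904. Without T2 and T4 they were 0.35 and 0.34 (adjusted p = 0.0490 and 0.0492).

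Immediate early genes, which can respond to the handling of tissue, also differed between groups. Their list of 7 genes spanned −0.11 to 0.08 in uninjured and 0.39 to 0.75 in injured DRG, with Dusp1, Fos and Junb called higher (3 of 7). T5 had the highest value of this list and of Hspb1 and the specific Hspa1a probes, and T3 the lowest of the injured arrays for each of them. The satellite glia list (T5 0.45, T3 0.12) and an endothelial list (T5 0.45, T3 −0.05) had the same extremes among the injured arrays. T4 was close to T5 for Hspb1 (3.97 against 3.997). On the immediate early list T4 lay at 0.43, below T1 (0.47) and T2 (0.45). T5 was also the array with the lowest median Cy5 signal. The part of these lists and of the signal in the Hspb1 and Hspa1a values was not tested. The satellite glia list spanned −0.08 to 0.09 in uninjured and 0.12 to 0.45 in injured DRG, with 3 of 7 genes called higher (Gfap, Glul and Slc1a3) and 1 lower (Cadm2). The sensory neuron list spanned −0.08 to 0.11 and −0.24 to 0.08, with 1 of 9 genes, Isl1, called lower. Over all genes 24.8% were called, 11.2% higher and 13.7% lower. Which cells of the DRG carried the Hspb1, Hspb8 and Hspa1a mRNA was not tested.

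The genes closest to Hspb1 over the 9 arrays were Cish, a feedback inhibitor of cytokine signalling (root mean square difference 0.0925), the transcription factor gene Ets2 (0.0946), the immediate early gene Arc (0.105) and the pseudokinase gene Trib3 (0.108), against a median of 0.839 over 16476 genes. Their log2 fold changes were 1.06, 1.02, 1.04 and 1.04. The likeness rests largely on the size of the difference between groups.

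Hspa8 encodes the constitutive HSC70, which is abundant in unstressed cells. Its mRNA did not differ detectably between groups. The brighter probe read 0.59, 0.62, 0.54 and 0.53 on C1 to C4, and 0.70, 0.56, 0.39, 0.77 and 0.64 on T1 to T5. The injured arrays lay on both sides of the uninjured ones, and the log2 fold change was 0.04 with an SE of 0.078 (limma, adjusted p = 0.747). The dimmer probe ranged from −0.92 to 0.08 on uninjured and from −0.82 to 0.05 on injured arrays (0.08, adjusted p = 0.834). The files place both probes on chromosome 5, at chr5:5787852-5787911 and chr5:5788853-5788912 on the minus strand (mm7), whereas RefSeq has Hspa8 on chromosome 9, so they may read near-identical copies. The probe that Hspa1a shares with Hspa1b rose more than the brighter Hspa8 probe, by 0.22 (exact permutation p = 0.0238, adjusted p = 0.0397). This call was lost in 8 of 11 alternatives, with adjusted p-values between 0.0595 and 0.119 when single arrays other than T4 were left out. The other shared probe gave 0.06, beside 0.04 for Hspa8, and that pair was not tested.

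Hspd1, the HSP60 subunit of the mitochondrial chaperonin, was lower on average after injury but did not pass the test. Its brighter probe (chr1:55325295-55325354, minus strand, mm7) read −0.30, −0.47, −0.21 and −0.27 on C1 to C4, and −0.41, −0.46, −0.47, −0.52 and −0.65 on T1 to T5. All injured arrays were below C1, C3 and C4, while C2 lay among them. The difference was −0.19 with an SE of 0.073 (limma, adjusted p = 0.0826; unadjusted p = 0.0235). The other probe (chr1:55325929-55325988) ranged from −1.40 to −1.12 on uninjured and from −2.06 to −1.36 on injured arrays, a log2 fold change of −0.28 with an SE of 0.13 (adjusted p = 0.163). Without C2 the brighter probe passed the threshold (−0.24, adjusted p = 0.0353). It passed in 6 of 25 alternatives, among them the authors' values (−0.21, limma, adjusted p = 0.0484).

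Hsf1, the factor that binds heat shock elements, gave probes of opposite sign and none was called. The brightest (chr15:76582655-76582715, plus strand, mm7) read 0.20, 0.23, 0.19 and 0.27 on C1 to C4, and 0.27, 0.35, 0.28, 0.33 and 0.42 on T1 to T5. Of the injured arrays, 4 lay above all uninjured arrays and T1 lay just below C4. The difference was 0.10 with an SE of 0.055 (limma, adjusted p = 0.208). The other 2 probes (chr15:76583221-76583280 and chr15:76583299-76583358) gave −0.11 (adjusted p = 0.371) and −0.07 (adjusted p = 0.649).

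**Figure D3:**
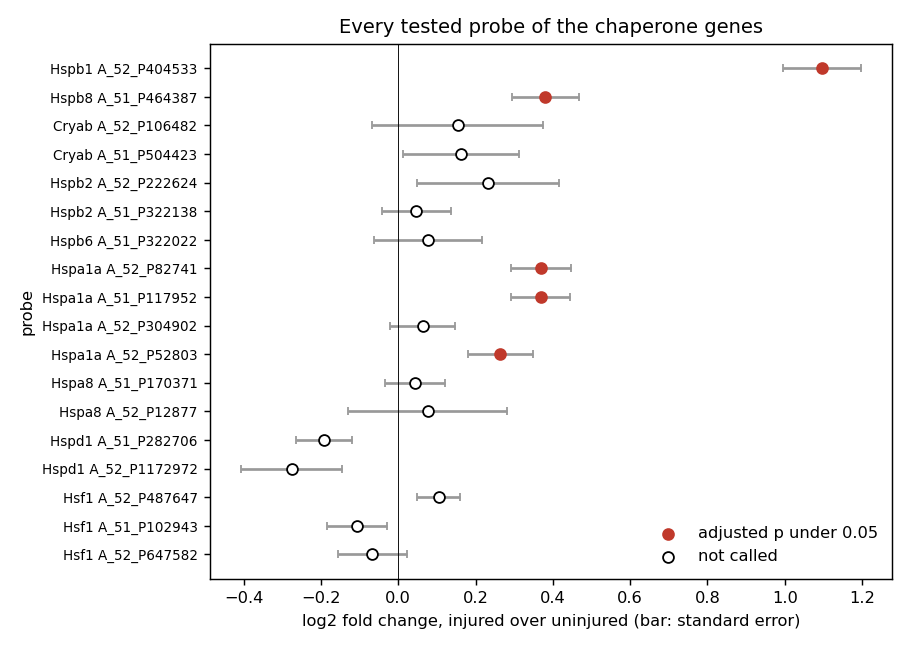
Log2 fold change (horizontal axis, injured over uninjured) of the 18 tested probes, with bars for the standard error; filled points have an adjusted p under 0.05. Hspb1 lies at 1.10, the other called probes of Hspb8 and Hspa1a between 0.26 and 0.38, and the uncalled probes between −0.28 and 0.23.

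The other genes of the chaperone system changed in both directions and in small steps. Of 70 genes in 8 lists, each taken at its brightest tested probe, 5 were higher, 7 were lower and 58 were not called. This is 17.1%, against 24.8% of 20898 genes (11.2% higher and 13.7% lower). The median log2 fold change of the 70 genes was 0.0056. The count of genes called higher was 9 without T5, and the count called lower was 4 without C1, 3 without C3, 4 without C4 and 2 without T2 and T4.

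Of 5 small heat shock protein genes outside the member list, 2 were lower and 0 were called higher by limma (1 at an unadjusted p under 0.05). This is 40.0% called, against 24.8% of all genes. Hspb9, named after its value was seen, differed by 0.21 (adjusted p = 0.0582), and its groups of arrays did not overlap. Hspb3, a partner of HSPB2 in muscle, fell by 0.34 with an SE of 0.096 (limma, adjusted p = 0.0268). Hspb11, a subunit of the intraflagellar transport complex despite its name, fell by 0.32 with an SE of 0.067 (adjusted p = 0.00581). Of 9 other HSP70 and HSP110 genes, Hspa4l, an HSP110-type exchange factor, fell by 0.24 (adjusted p = 0.0207), and the other 8 were not called (11.1% called).

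Of the 5 genes called higher, 3 were in the HSP40 list. Of its 12 genes 3 rose and 1 fell, 33.3% called against 24.8% of all genes (11.2% higher and 13.7% lower). Dnajb1, the main stress-inducible partner of HSP70, averaged 0.28 ± 0.088 (SD, n = 4) without injury and 0.69 ± 0.150 (SD, n = 5) after it, an increase of 0.41 with an SE of 0.084 (limma, adjusted p = 0.00518), and a second Dnajb1 probe rose by 0.21 (adjusted p = 0.0441). Dnajb5, another HSP40 of this class, rose by 0.39 (adjusted p = 0.00196). Dnajc7, a TPR-domain partner of HSP70 and HSP90 that was named after its value was seen, rose by 0.39 (adjusted p = 0.00233). Dnajc8, a spliceosome-associated member, fell by 0.22 (adjusted p = 0.0326).

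In the list of BAG and other HSP70 co-chaperones 1 of 10 genes rose, 2 fell and 7 were not called, 30.0% against 24.8% of all genes. Sqstm1, which encodes the autophagy receptor p62, rose by 0.47 with an SE of 0.12 (limma, adjusted p = 0.0165). Bag2, an inhibitor of the CHIP ubiquitin ligase, averaged −0.14 ± 0.067 (SD, n = 4) without injury and −0.86 ± 0.217 (SD, n = 5) after it, a difference of −0.71 (adjusted p = 0.000700). Bag4 fell by 0.39 (adjusted p = 0.00874), and its second probe fell by 0.43 (adjusted p = 0.0164).

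Among the large folding machines, 1 of 14 genes was called in the TRiC and prefoldin list (7.14%) and 1 of 7 in the mitochondrial list (14.3%). Over all genes 24.8% were called, and counts this small were not tested against that share. Of 10 genes of cytosolic HSP90 and its partners 0 were called by limma (1, lower, at an unadjusted p under 0.05), with log2 fold changes between −0.21 and 0.20. In the list of the TRiC chaperonin and prefoldin 1 of 14 genes was called, the prefoldin subunit gene Vbp1, which fell by 0.22 (limma, adjusted p = 0.0201). Of 7 mitochondrial chaperone and protease genes Clpx, a subunit of a matrix protease, rose by 0.22 (adjusted p = 0.0207), while its second probe gave 0.05 (adjusted p = 0.783). The 3 other heat shock factor and regulator genes lay between −0.18 and −0.12, and 0 were called (1 at an unadjusted p under 0.05).

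**Figure D4:**
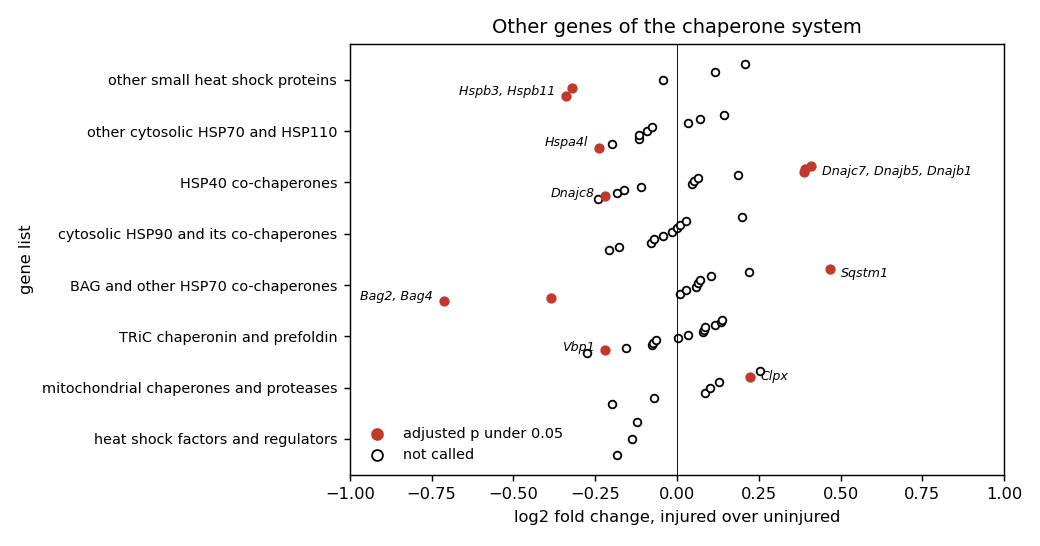
Log2 fold change (horizontal axis, injured over uninjured) of 70 further chaperone genes, grouped by list, at the brightest probe of each gene; filled points have an adjusted p under 0.05 and are named, in order from left to right. The called genes are 5 higher, of which 3 are HSP40 genes, and 7 lower, with Bag2 at −0.71 the farthest from 0.

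**Figure D5:**
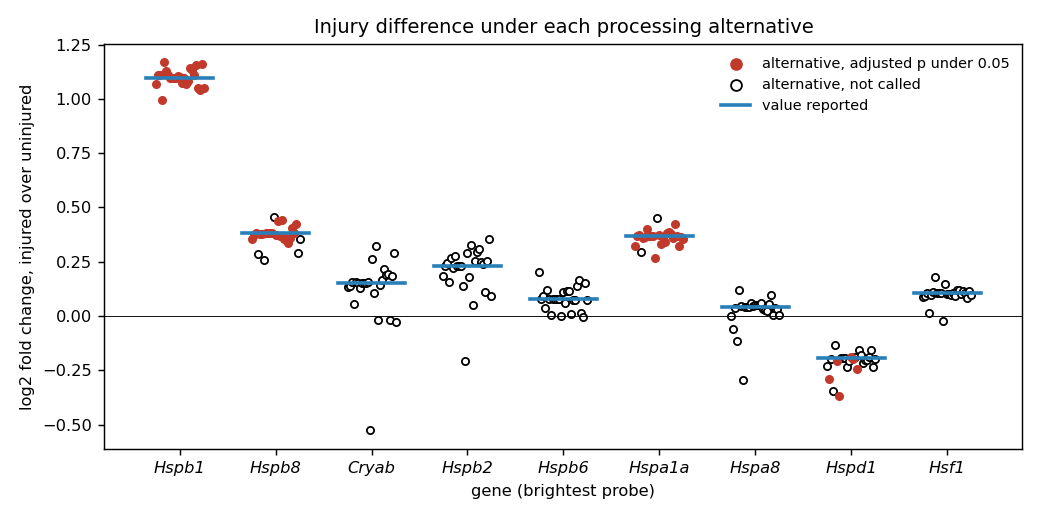
Log2 fold change of the brightest probe of each member under each processing alternative (points; filled where the adjusted p is under 0.05) and as reported (blue lines). Hspb1 stays between 0.99 and 1.17 and is filled throughout, Hspb8 and Hspa1a are filled under 20 and 23 of 25 alternatives, and Cryab reaches −0.53 with slide as a fixed block.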

How the data were processed

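Total RNA of L3/L4 DRG was measured on 9 two-colour arrays. The deposited scanner intensities give the mean brightness of each spot and the median of its local background in both channels. The log10 ratios in the same files are Agilent's own, per the file headers. A table of the authors' own values holds log2 of Cy5 divided by Cy3 after background correction and within-array normalization, for which the submitters' processing notes name limma. Optic nerve, culture and sequencing experiments were not analysed here, and 1 gene of the myelin list is not reported here.

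The tools were R 4.3.3 and limma 3.58.1. The normexp method (offset of 50) corrected the background, fitted without spots that the scanner software marks as having non-uniform local background. On T2, 20 such spots in Cy5 moved the fitted background mean from −15.5 to −358 and the slope of the log2 ratios against the authors' values from 1.01 to 0.823. Loess within arrays, removal of outlier spots, averaging of repeated spots and a filter for Cy5 well above background on at least 4 arrays followed. The brightest probe of a gene is the tested probe with the highest mean signal. RefSeq symbols were found through the accession (22951 probes), the symbol (6659) or an older name (3109), and the other 8455 keep their file name. Python 3.11.15 with matplotlib 3.10.9 drew the figures.

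The groups were compared by limma (lmFit and eBayes) with p-values adjusted by Benjamini-Hochberg over 31186 probes, and for single values by exact permutation of the arrays, two-sided. The procedure was tested on simulated data with independent noise for each probe and no slide effect. That setting does not address the overlap of slide and injury in these data. The members, gene lists, pairs and the way of fitting the background were chosen with earlier results of these data known. Genes outside the member list were named by rule, as up to 2 called genes at each end of a chaperone list and the 4 closest in pattern to Hspb1, Cryab and Hspb6. The number of arrays limits the precision. Alternatives changed the background correction, normalization, channel, filter, choice of probe, slide, array weights and arrays. Leaving out T2 and T4 together was added after the data were seen.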

Additional observations from a re-analysis of the deposited data

Results flagged for a closer look

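Of 58 groups of arrays tested for a single array apart from the rest, 8 had one, where chance gives about 1 in 20 for independent groups. The groups share the same arrays, and some hold probes of the same gene, so they are not independent and the 2 rates cannot be compared directly. The brighter Cryab probe stood apart on T4 at 2.77. The second Cryab probe stood apart on C1 at 2.50 and on T4 at 2.80, the arrays on which the myelin list was also highest in its group. Hspb8 stood apart on C2 at 3.47, above the other uninjured arrays. The second Hspd1 probe stood apart on C3 at −1.12, and one of the dimmer Hsf1 probes on C4 at −0.73. The immediate early list stood apart on T5 at 0.75 and the axon injury list on T2 at 3.35, each the highest of the injured arrays. The part of single arrays in these values was not tested.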

How the results depend on the processing

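Hspb1 was called higher under each of the 25 alternatives, with log2 fold changes between 0.99 and 1.17. Over all probes, 7336 were called, and 3519 with median centring, 1502 with slide as a fixed block, 4032 without T2 and T4 and between 5374 and 7483 when each array was left out in turn. Of the called probes 44.5% were higher, against 55.6% with slide as a fixed block. That fit rests on C1 as the only uninjured array of the mixed slide. With slide as a random block 10328 probes were called. The fitted correlation within slides was then negative (−0.20) and standard errors could be smaller, as for Hspb1 (0.080 against 0.10). Member probes called higher were 1 with median centring, 3 in the Cy5 channel alone, 1 with slide as a fixed block, 3 without T1 and T2, 3 without T2 and T4, and between 4 and 5 without single arrays. Member probes called lower were 1 with an offset of 0, with the authors' values, in the Cy5 channel alone or with array weights, 2 with slide as a random block, and between 0 and 1 without single arrays. These calls are of Hspd1. Chaperone list genes called higher were 1 with median centring, 3 in the Cy5 channel alone, 1 with slide as a fixed block, 9 with slide as a random block and between 4 and 9 without single arrays. Those called lower were 2, 1 and 11 with median centring and with slide as a fixed or random block, 2 without T2 and T4, and between 3 and 10 without single arrays.

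Signs turned for members that were not called. With slide as a fixed block the values were −0.53 and −0.30 for Cryab, −0.21 and −0.19 for Hspb2, −0.045 for the Hspa1a probe that differed least and 0.0014 for the dimmest Hsf1 probe, which was 0.0080 without T1 and T2. The brighter Hspa8 probe gave −0.061 with an offset of 0, −0.12 with median centring and −0.30 in the Cy5 channel alone. The dimmer Hspa8 probe gave −0.058 with median centring, −0.025 without T1 and T2 and −0.097 to 0.24 without single arrays. The dimmer Hspb2 probe gave −0.024 in the Cy5 channel alone, −0.042 without T2 and T4 and −0.0049 to 0.11 without single arrays. The brighter Cryab probe gave −0.026 without T2 and T4, and −0.018 to 0.32 without single arrays, with −0.018 both without C2 and without T4. Hspb6 gave −0.0045 to 0.16 without single arrays, and averaging the probes of Hsf1 gave −0.023. The change in Hspb6 less that in Cryab was 0.068 with all spots in the background fit and −0.21 to 0.13 without single arrays. Without single arrays the other differences between members lay between 0.78 and 1.09 for Hspb1 and Cryab, 0.62 and 0.80 for Hspb1 and Hspb8, and 0.18 and 0.26 for the probe of Hspa1a and Hspa1b against Hspa8. Without T1, T2, T3 or T5 the adjusted exact p was 0.0714 for both Hspb1 differences and 0.0952 for the third, and without T4 it was 0.0476 for each of the 3. In each of these fits the exact p of both Hspb1 differences was the smallest possible, and their adjusted value turned on the third pair. The causes were not tested. No paired analysis was possible because GEO's labels give no replicate numbers and identify no animals.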

Other observations

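Other cell type lists were measured on the same arrays. Of the macrophage list 1 of 10 genes was called (6 higher at an unadjusted p under 0.05), Aif1, which was higher by 0.90 on the log2 scale with an SE of 0.20 (limma, adjusted p = 0.00760), and the list spanned −0.46 to 0.38 in uninjured and 0.03 to 1.00 in injured DRG. Of the endothelial list 1 of 5 genes was called, Tek, higher by 0.47 (adjusted p = 0.0257). Over all genes 24.8% were called in either direction. Of the red blood cell list 0 of 4 tested genes and of the fat cell list 0 of 5 were called by limma (3 and 1 at an unadjusted p under 0.05), although the red blood cell list lay 1.42 above the uninjured mean on T2 and the fat cell list 1.17 above it on T4.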
